A study of Mus musculus with 6 samples.

Results

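The genes described here make cholesterol and fatty acids, or control that synthesis. They were chosen by name as 39 symbols, and all 39 were found among the 14472 rows of the authors' deposited table, each on a single row. The RNA came from mLPS1 cells, a mouse line whose cell type is given as dedifferentiated liposarcoma, a fat-lineage sarcoma that has lost most signs of fat cell differentiation. There were 6 libraries in 2 groups: 3 of the line with the wild type genotype (labelled WT) and 3 of the line labelled NICD Knockout, both without a stated treatment. NICD is the intracellular fragment of a Notch receptor, which enters the nucleus on activation and switches on genes with the DNA-binding protein Rbpj.

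The labels name 1 line per genotype and give each library a p number. These were 35, 37 and 40 in wild type and 34, 36 and 39 in the knockout. The labels do not tell whether each library had its own culture. The p-values thus cover only how much these libraries vary, and that spread may be technical. Clones are not described, and a pairing by p number could not be examined without values of single libraries. The series title refers to over-expression of Notch and its design text to dNICD cells, whereas the sample labels say knockout, and the direction of every change, NICD knockout over wild type, rests on the name of the authors' deposited table. Notch1, the receptor gene that can give rise to NICD, had a log2 fold change of -1.78 (standard error, SE, 0.13) in the authors' deposited table, which does not separate an introduced fragment from the endogenous gene. Among marker genes, Vim stood at a mean normalised count of 82338 and 6 of 7 mesenchymal markers were listed in the authors' deposited table, 3 of them lower (Pdgfrb -3.02, Col1a1 -1.94 and Vim -0.56) and 3 higher (Pdgfra 2.36, S100a4 1.78 and Col1a2 1.27). Their summed fitted levels were 149685 in wild type and 90275 after knockout. The adipocyte markers Adipoq, Lep, Plin1 and Cidec were not listed in the authors' deposited table, nor were any of 4 hepatocyte markers. Summed fitted levels of the listed leukocyte markers were 293.3 in wild type and 2285 in the knockout, mostly from Cd68, and those of the listed adipocyte markers 48.3 and 350.7, with Fabp4 at 4.37 and 307.4, while Ptprc, which defines leukocytes, had a mean of 8.73 in the authors' deposited table, and the part of other cells in the results below was not tested.

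Cells build cholesterol from acetyl-CoA through mevalonate, isoprenoids, squalene and lanosterol, and they build fatty acids from the same acetyl-CoA by carboxylation, chain synthesis, elongation and desaturation. Both pathways are under the sterol regulatory element-binding proteins (SREBPs), membrane-bound transcription factors that are escorted from the endoplasmic reticulum to the Golgi by Scap and cut there when sterols are scarce. Insig proteins hold Scap back when sterols are plentiful. The product of Srebf2 mainly drives cholesterol genes, and that of Srebf1 mainly fatty acid genes, including the desaturases. In fat-lineage cells, fatty acid synthesis feeds the lipid droplet as well as membranes.

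SREBPs act at promoters together with the factors NF-Y and Sp1. The promoter windows of 4 genes are shown: Hmgcs1 and Insig1, classic sterol-responsive genes that fell, Elovl6, which also fell, and Fasn, which rose. Sequences are from RefSeq on GRCm38.p6, read 5′ to 3′ on the strand of the gene, and start 250 bases before the annotated start; those of Insig1 and Elovl6 end 51 bases before it. Capitals mark the NF-Y box CCAAT or its reverse complement ATTGG, and in Hmgcs1 also the sterol regulatory element.
Hmgcs1, chr13:119690101-119690350, plus strand: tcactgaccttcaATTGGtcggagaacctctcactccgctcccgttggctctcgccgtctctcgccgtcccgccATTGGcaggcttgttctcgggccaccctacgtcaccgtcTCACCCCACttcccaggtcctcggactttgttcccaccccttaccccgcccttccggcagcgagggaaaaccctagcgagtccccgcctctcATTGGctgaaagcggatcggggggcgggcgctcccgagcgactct
Insig1, chr5:28071162-28071361, plus strand: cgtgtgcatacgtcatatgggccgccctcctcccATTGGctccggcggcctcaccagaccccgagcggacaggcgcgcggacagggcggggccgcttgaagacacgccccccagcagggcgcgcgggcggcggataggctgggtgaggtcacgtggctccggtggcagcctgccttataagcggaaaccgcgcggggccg
Elovl6, chr3:129532136-129532335, plus strand: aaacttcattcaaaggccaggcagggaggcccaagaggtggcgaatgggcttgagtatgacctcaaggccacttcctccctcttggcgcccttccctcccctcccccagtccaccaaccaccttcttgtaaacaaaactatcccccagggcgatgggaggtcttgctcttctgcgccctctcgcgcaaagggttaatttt
Fasn, chr11:120824548-120824797, minus strand: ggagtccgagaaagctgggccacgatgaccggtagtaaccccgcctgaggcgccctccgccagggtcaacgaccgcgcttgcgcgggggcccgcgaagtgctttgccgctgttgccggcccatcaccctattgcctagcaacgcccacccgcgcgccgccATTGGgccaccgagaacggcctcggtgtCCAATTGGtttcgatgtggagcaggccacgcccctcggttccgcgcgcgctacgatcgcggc

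In the printed stretches Hmgcs1 held 3 NF-Y boxes and 1 exact sterol regulatory element, which began at position -137 from the start. Insig1 held 1 NF-Y box and Elovl6 neither motif. Fasn held 3 NF-Y boxes, of which 2 overlap on opposite strands. Windows of 300 bases, reaching 50 bases past the start, were given for 32 of the 39 genes. Scd1, Scd2, Fads1, Sqle, Fdps, Fdft1 and Stard4 had none. The NF-Y box, searched as CCAAT on both strands, occurred in 27 of the 32 genes (84.4%), against 43.6% of 8276 genes with a mean normalised count of at least 100 and 41.1% of all 27025 genes with a window. It occurred in 15 of 18 genes that fell, 3 of 3 that rose and 9 of 11 that did not pass. The GC box bound by Sp1, searched as GGGCGG on both strands, occurred in 81.2% of the 32 genes and in 72.3% of the genes at a mean of 100 or more. The sterol regulatory element, searched as TCACNCCAC on both strands, occurred in Hmgcs1 and Acsl1 (6.25%), against 1.35% of genes at a mean of 100 or more. A gene with several windows counted as holding a motif if any window did. These matches describe letters in the windows and do not show binding.

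The comparison asks how the line labelled as lacking NICD differs from wild type in its lipid synthesis genes. Most of them were lower in the knockout. At an adjusted p under 0.05, 23 of the 39 (59.0%) were lower in the authors' deposited table, 3 were higher and 13 did not pass. Over all 14470 genes tested in the authors' deposited table, 50.5% passed, made up of 25.1% lower and 25.4% higher. As 37 of the 39 had a mean of at least 100, the share among such genes is the closer background: 54.6% of 10479 passed in the authors' deposited table, with 30.2% on the lower side and 24.4% on the higher. The median log2 fold change of the 39 genes was -0.44, against 0.02 over all genes and -0.05 over those with a mean of at least 100. Among called genes, falls of 2-fold or more were seen for 6 of the 39, namely Fads2, Scd2, Scd1, Elovl6, Fads1 and Dhcr7. Called falls of that size made up 9.74% of all genes and 9.28% of those at a mean of 100 or more. Acacb had a 2.05-fold lower estimate that did not pass. Lower RNA in a library can come from less RNA per cell or from fewer cells of a kind, and these cannot be told apart in bulk RNA.

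**Figure D1:**
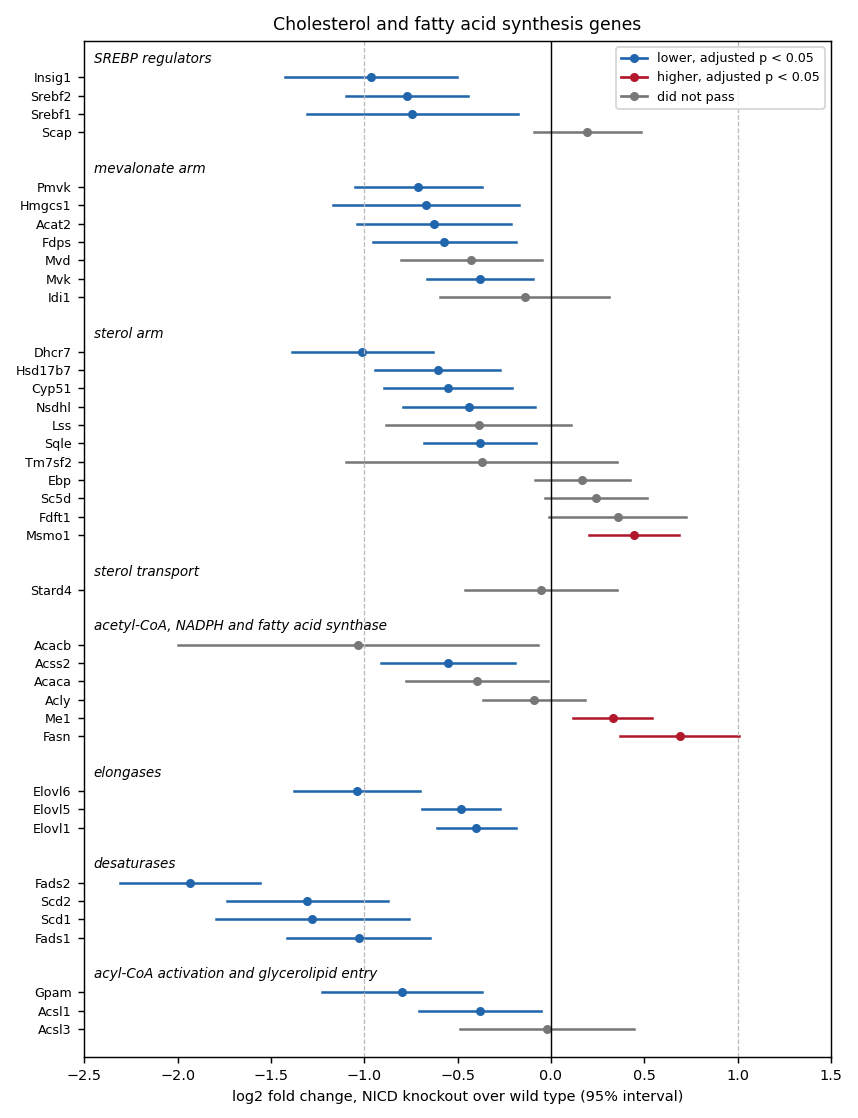
Log2 fold change (NICD knockout over wild type, x axis) of each of the 39 genes with its 95% Wald interval, grouped by step; blue marks genes lower and red genes higher at an adjusted p under 0.05, grey those that did not pass, and dashed lines mark a 2-fold change. All 4 desaturases lie left of the lower dashed line, and Fasn, Msmo1 and Me1 are the 3 genes in red.

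Single libraries' values were not used here, so levels are fitted for each group from the mean normalised count and the fold change, with 3 libraries assumed in each, and are not per transcript length. They are compared between groups and not between genes.

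The desaturases, which place double bonds into fatty acids, had the steepest median fall of any step. All 4 were lower, with a median log2 fold change of -1.29. Fads2 (ENSMUSG00000024665), the delta-6 desaturase that starts the synthesis of long polyunsaturated fatty acids, went from 8587 in wild type to 2247 in the knockout, both fitted levels. The authors' deposited table gave it a log2 fold change of -1.93 (SE 0.19, adjusted p = 6.09e-23), a 3.82-fold fall that left 26.2% of the wild type level (95% interval 20.2% to 33.9%). Fads1, the delta-5 desaturase of the same pathway, went from 6950 to 3404, with a value of -1.03 (SE 0.20, adjusted p = 8.04e-07) in the authors' deposited table. The stearoyl-CoA desaturases make monounsaturated fatty acids. Scd1 went from 13325 to 5497 and Scd2 from 27700 to 11209. The authors' deposited table gave log2 fold changes of -1.28 (SE 0.26, adjusted p = 6.02e-06) and -1.31 (SE 0.22, adjusted p = 2.29e-08). Both stearoyl-CoA desaturases thus stood near 41.3% and 40.5% of wild type. The intervals of Scd1, Scd2 and Fads1 overlap, and differences among these 3 were not tested.

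All 4 desaturases lie on chromosome 19, as do Gpam and Tm7sf2. Genes of that chromosome with a mean of at least 100 had a median log2 fold change of -0.09, and the 20 expressed neighbours of each desaturase (10 on each side) had medians between -0.11 and -0.03. Fads3, the third gene of the Fads cluster, which is not among the 39, fell with -0.66 (adjusted p = 0.00472) in the authors' deposited table. Scd4 of the Scd cluster had 0.97 (adjusted p = 0.202) at a mean of only 14.3 in the authors' deposited table.

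The elongases, which add carbon pairs to fatty acids, were also lower, all 3 of 3. Elovl6, which lengthens palmitate to stearate and so supplies the stearoyl-CoA desaturases, went from 1723 to 837.7 in fitted level. The authors' deposited table gave Elovl6 a log2 fold change of -1.04 (SE 0.17, adjusted p = 1.01e-08), a 2.06-fold fall. Elovl5, an elongase of polyunsaturated fatty acids, and Elovl1, which makes very long saturated chains, fell less, to 71.6% and 75.9% of wild type. The authors' deposited table gave them -0.48 (SE 0.11, adjusted p = 2.79e-05) and -0.40 (SE 0.11, adjusted p = 6.52e-04).

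In the steps before them, which make acetyl-CoA, malonyl-CoA, NADPH and palmitate, 1 of 6 fell (16.7%), 2 rose (33.3%) and 3 did not pass. Of the 6, 5 had a mean of at least 100, where the background is 30.2% lower and 24.4% higher. Fasn, the multifunctional synthase that builds palmitate, rose from 6882 to 11094 in fitted level. In the authors' deposited table its log2 fold change was 0.69 (SE 0.16, adjusted p = 9.58e-05), or 161.2% of wild type (interval 129.2% to 201.2%). The 20 expressed neighbours of Fasn on chromosome 11 had a median of 0.67, of which 4 were below 0, and with this median subtracted Fasn was at 0.02 (adjusted p = 0.938). Here and below, p-values with neighbours subtracted used the SE of the gene alone and took the neighbours' median as exact. The spread of the neighbours was not counted. Me1, the cytosolic malic enzyme that supplies NADPH, rose from 1990 to 2504 (log2 fold change 0.33, SE 0.11, adjusted p = 0.00574 in the authors' deposited table), while genes around it had a median of -0.22.

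Acss2, which makes acetyl-CoA from acetate, fell from 249.0 to 169.8, with -0.55 (SE 0.18, adjusted p = 0.00665) in the authors' deposited table. Acly, which makes acetyl-CoA from citrate, did not pass at -0.09, with an interval of -0.36 to 0.18 in the authors' deposited table. Acaca and Acacb, the carboxylases that make malonyl-CoA in the cytosol and at mitochondria, had values of -0.39 (adjusted p = 0.0779) and -1.03 (adjusted p = 0.0673) in the authors' deposited table. Acacb had a mean under 100, and its interval ran from -2.00 to -0.07. Acaca and Acly also lie on chromosome 11, where 878 expressed genes had a median of 0.20. With their neighbours' medians of 0.33 and 0.28 subtracted, both passed as lower, at -0.73 (adjusted p = 6.42e-04) and -0.37 (adjusted p = 0.0194).

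Of the genes that activate fatty acids or pass them to glycerolipids, 2 of 3 were lower. Gpam, the mitochondrial acyltransferase that starts glycerolipid synthesis, went from 735.6 to 422.5 (log2 fold change -0.80, SE 0.22, adjusted p = 8.23e-04 in the authors' deposited table). Acsl1, an acyl-CoA synthetase, passed narrowly at -0.38 (SE 0.17, adjusted p = 0.0444) in the authors' deposited table and did not pass after centring on expressed genes or with its neighbours subtracted. Acsl3, the synthetase of lipid droplets, did not pass at -0.02, with an interval of -0.49 to 0.44 in the authors' deposited table.

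**Figure D2:**
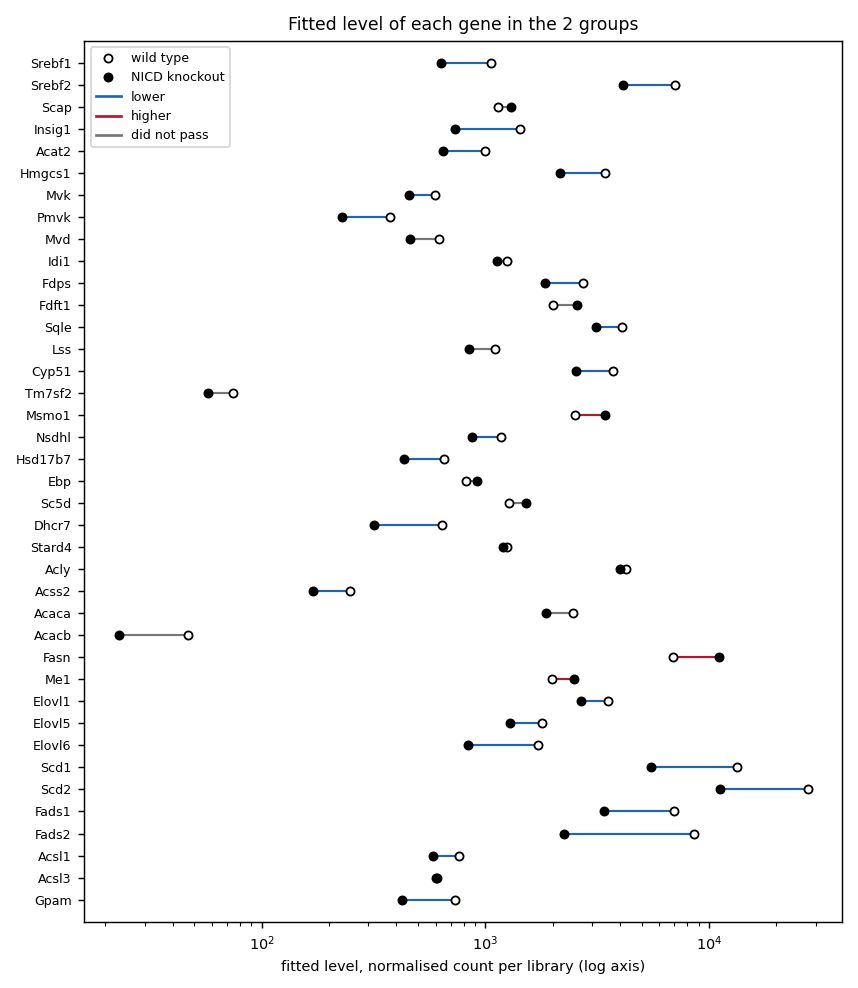
Fitted level of each gene in wild type (open circles) and NICD knockout (filled circles), in normalised counts per library on a log axis, joined by a line coloured by the call. The Fads2 line is the longest, from 8587 to 2247, and the filled circles of Fasn, Me1 and Msmo1 lie right of the open ones. Levels are not per transcript length and are read within a row.

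Among the 4 SREBP regulators, 3 fell. Srebf2 went from 7076 to 4142 in fitted level, with -0.77 (SE 0.17, adjusted p = 1.75e-05) in the authors' deposited table. Srebf1, whose isoforms are not separated in the file, went from 1061 to 633.8, with -0.74 (SE 0.29, adjusted p = 0.0219) in the authors' deposited table. Insig1, itself a target of SREBPs, went from 1424 to 730.2, a 1.95-fold fall, with -0.96 (SE 0.24, adjusted p = 1.59e-04) in the authors' deposited table. Scap did not pass at 0.20, and its interval ran from -0.09 to 0.48 in the authors' deposited table. Both SREBP genes and Insig1 were thus lower, and the escort gene was not called.

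In the mevalonate arm, which leads from acetyl-CoA to farnesyl diphosphate, 5 of 7 genes fell and all 7 had a log2 fold change below 0. Pmvk, phosphomevalonate kinase, went from 373.6 to 228.1, with -0.71 (SE 0.17, adjusted p = 1.60e-04) in the authors' deposited table. Hmgcs1, which makes HMG-CoA, went from 3446 to 2168, with -0.67 (SE 0.25, adjusted p = 0.0197) in the authors' deposited table. Acat2, the cytosolic thiolase of the first step, had -0.63 (SE 0.21, adjusted p = 0.00739), and Fdps, farnesyl diphosphate synthase, had -0.57 (SE 0.20, adjusted p = 0.00878) in the authors' deposited table. With the genes around it subtracted, Acat2 no longer passed (-0.44, adjusted p = 0.0701). Mvk, mevalonate kinase, fell least of the 5, to 76.9% of wild type, with -0.38 (adjusted p = 0.0205) in the authors' deposited table. Mvd, the next decarboxylase, did not pass at -0.43 (adjusted p = 0.0529) in the authors' deposited table, while genes around it had a median of -0.47. Idi1, the isomerase, did not pass at -0.14, with an interval of -0.59 to 0.31 in the authors' deposited table.

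In the sterol arm, from squalene to cholesterol, 5 of 11 genes fell, 1 rose and 5 did not pass. Dhcr7, which catalyses a last reduction on the way to cholesterol, had the steepest fall of all cholesterol genes on the list, from 637.9 to 316.7. Its value in the authors' deposited table was -1.01 (SE 0.19, adjusted p = 9.52e-07). Cyp51, the lanosterol demethylase, went from 3729 to 2547, with -0.55 (SE 0.18, adjusted p = 0.00470) in the authors' deposited table. Sqle, squalene epoxidase, and Nsdhl, a sterol dehydrogenase, fell to 76.9% and 73.8% of wild type, with -0.38 (adjusted p = 0.0276) and -0.44 (adjusted p = 0.0319) in the authors' deposited table. After centring on expressed genes neither passed (adjusted p = 0.0591 and 0.0600). Hsd17b7, the sterol ketoreductase, had -0.61 (adjusted p = 0.00123) in the authors' deposited table, but 18 of its 20 neighbours on chromosome 1 were below 0 with a median of -0.39, and it did not pass once that was subtracted (-0.22, adjusted p = 0.293).

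Msmo1, the C4-methylsterol oxidase that acts between Cyp51 and Nsdhl, went the other way, from 2510 to 3415. The authors' deposited table gave Msmo1 a log2 fold change of 0.44 (SE 0.12, adjusted p = 9.98e-04), while genes around it on chromosome 8 had a median of -0.26. Fdft1, squalene synthase, Sc5d, a sterol desaturase, and Ebp, a sterol isomerase, had values above 0 that did not pass, at 0.36, 0.24 and 0.17 in the authors' deposited table. With their neighbours subtracted these 3 passed as higher, at 0.43, 0.36 and 0.41 (adjusted p = 0.0487, 0.0242 and 0.00378). The spread of the neighbours was not counted in these p-values. Lss, lanosterol synthase, and Tm7sf2, a sterol reductase, did not pass at -0.39 and -0.37, with SEs of 0.25 and 0.37 in the authors' deposited table. Stard4, a carrier that moves cholesterol between membranes, did not pass at -0.05 (interval -0.46 to 0.35) in the authors' deposited table, while genes around it on chromosome 18 had a median of 0.48.

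The 39 genes lie on 17 chromosomes. Whole chromosomes differed in their median, from -0.55 on chromosome 12 to 0.48 on chromosome 18 over genes at a mean of 100 or more, so each gene was set beside the median of its expressed protein-coding neighbours, 20 for all but Hmgcs1 (11), Cyp51 (18) and Dhcr7 (17). That median was within 0.3 of 0 for 34 genes. It was at or below -0.3 for Mvd and Hsd17b7, and at or above 0.3 for Stard4, Acaca and Fasn. With neighbours subtracted, 23 genes were again lower, 20 of them the ones called before, and 5 were higher. Over all genes, 21.2% were lower and 26.1% higher on that scale. The part of such regional shifts in a gene's change was not tested. Calls with neighbours subtracted took the neighbours' median as exact and counted only the SE of the gene.

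**Figure D3:**
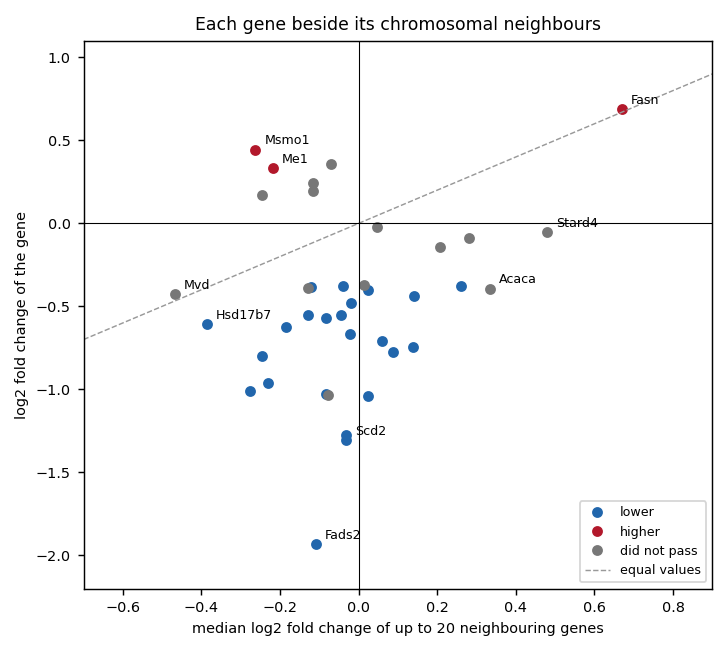
Log2 fold change of each of the 39 genes (y axis) against the median log2 fold change of its expressed neighbours on the chromosome (x axis), coloured by the call; the dashed line marks equal values. Fasn, at 0.69 against 0.67, and Mvd, at -0.43 against -0.47, lie on the line, and the desaturases lie far below it.

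Some members share sequence with other genes, which limits how their reads could be assigned. In GENCODE M21 transcripts, 9 of the 39 had at least 10% of their 31-base words also in transcripts of another gene, and 18 had under 1%. The share was 67.5% for Fdps, 53.2% for Acaca, 45.2% for Acat2 and 39.5% for Me1, most of it with Gm43738, Gm5182, Acat3 and Gm7049. It was 36.8% for Fdft1, 30.5% for Idi1, 21.2% for Tm7sf2, 13.8% for Scap and 13.7% for Hmgcs1. Scd1 shared 5.19% of its words with Scd2, and Fads1 and Fads2 shared none with each other. The whole share was 8.20% for Scd1 and 6.86% for Scd2, with Scd3 as the largest partner (5.85% and 4.87%). Fads2 shared 0.75% with Fads3. Values of the first 9 are the less certain ones.

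Genes of the same pathways outside the 39 were taken from 6 lists with 82 genes in the authors' deposited table, of which 18 were lower (21.95%), 21 higher (25.6%) and 43 did not pass. Of these 82 genes, 69 had a mean of at least 100, where the background is 30.2% lower and 24.4% higher. Among 11 other genes of sterol and isoprenoid synthesis, 3 fell and 2 rose. Nus1, a dolichol synthesis subunit, fell with -0.31, and its partner Dhdds and the isoprenoid synthase Ggps1 rose with 0.37 and 0.66 in the authors' deposited table, and the genes around Dhdds and Ggps1 had medians of 0.32 and 0.43. With these subtracted neither Dhdds (0.046, adjusted p = 0.775) nor Ggps1 (0.23, adjusted p = 0.373) passed. Of 12 other genes of SREBP control, 9 did not pass and 3 were higher, Spring1 (0.67), Erlin1 (0.44) and Paqr3 (0.99) in the authors' deposited table, with adjusted p of 1.39e-04, 0.0172 and 0.0185. Spring1 is needed for SREBP activation, and Paqr3 anchors Scap at the Golgi.

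Of the genes of sterol uptake and movement, 4 of 14 were lower and 4 higher (28.6% each). These shares are near the 30.2% lower and 24.4% higher among genes with a mean of at least 100. Scarb1, a receptor for HDL, and Osbp, a sterol transfer protein, fell with -0.33 and -0.52 in the authors' deposited table. Osbp did not pass with the genes around it subtracted (-0.25, adjusted p = 0.0895). The genes for the lysosomal sterol carriers Npc1 and Npc2 rose with 0.53 and 2.23 in the authors' deposited table (adjusted p = 3.09e-04 and 3.68e-111), where the neighbours of Npc2 on chromosome 12 had a median of 1.42. Gramd1c, a sterol transporter gene, had a wild type fit under 1 normalised count and a fit of 26.2 per library after knockout, computed from the authors' deposited table. Set against a floor of 1 in each wild type library, or 3 over the group, it was higher by a log2 fold change of at least 4.71.

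Genes of sterol efflux, esters, oxysterols and the liver X receptors, which switch on efflux when sterols are plentiful, had 6 of 11 members higher, 2 lower and a median of 1.06. The shares were 54.5% higher and 18.2% lower, against 25.4% and 25.1% of all genes tested. Only 5 of these 11 had a mean of at least 100, and the median SE of the list was 0.44. Cyp27a1, among the 6, passed narrowly (adjusted p = 0.0460 in the authors' deposited table, at a mean of 36.6). With the genes around it subtracted Cyp27a1 did not pass (0.86, adjusted p = 0.118). The efflux pump gene Abca1 went from 22.6 to 188.2 in fitted level, an 8.34-fold rise, with 3.06 (SE 0.36, adjusted p = 3.06e-16) in the authors' deposited table. Abcg1, another efflux pump, rose 2.05-fold, with 1.03 (SE 0.21, adjusted p = 5.33e-06) in the authors' deposited table, while genes around it had a median of -0.47. Cyp46a1, a cholesterol hydroxylase, rose with 3.32 at a mean of 15.1 in the authors' deposited table. Its 20 neighbours on chromosome 12 were all below 0, with a median of -1.07. Lpcat3, a phospholipid-remodelling enzyme, fell with -0.97 (adjusted p = 8.48e-16), and Ch25h, which makes 25-hydroxycholesterol, fell with -1.64 (adjusted p = 0.00111) at a mean of 30.6 in the authors' deposited table. Genes around Lpcat3 and Ch25h had medians of -0.45 and 0.33.

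Of 17 other genes of fatty acid synthesis, elongation and desaturation, 3 rose, 1 fell (Fads3, above) and 13 did not pass. Elovl7, an elongase of long saturated chains, went from 1.88 to 145.2 in fitted level, with 6.27 (SE 0.71, adjusted p = 1.40e-17) in the authors' deposited table, opposite to Elovl1, Elovl5 and Elovl6. Elovl4, an elongase of very long chains, and Hsd17b12, the ketoreductase of elongation, rose with 1.22 and 0.24 in the authors' deposited table. Of 17 other acyl-CoA synthetases and glycerolipid genes, 8 fell and 3 rose. Those with the smallest p were Acsf2 (-1.25), Agpat5 (-0.68) and Agpat1 (-0.62) among the falls and Gpat3 (2.60), Acsl5 (0.42) and Acsl6 (2.70, at a mean of 10.3) among the rises in the authors' deposited table. Acsl6 did not pass with the genes around it subtracted (adjusted p = 0.0609). Gpat3, an acyltransferase of the endoplasmic reticulum, rose 6.05-fold from a wild type fit of 30.1, while Gpam, its mitochondrial counterpart, fell 1.74-fold. Gpat4 of the same list fell with -0.39 (adjusted p = 0.00724) in the authors' deposited table. The mean was 106.2 for Gpat3 and 1893 for Gpat4. With the genes around it subtracted Gpat4 did not pass (-0.29, adjusted p = 0.0613).

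**Figure D4:**
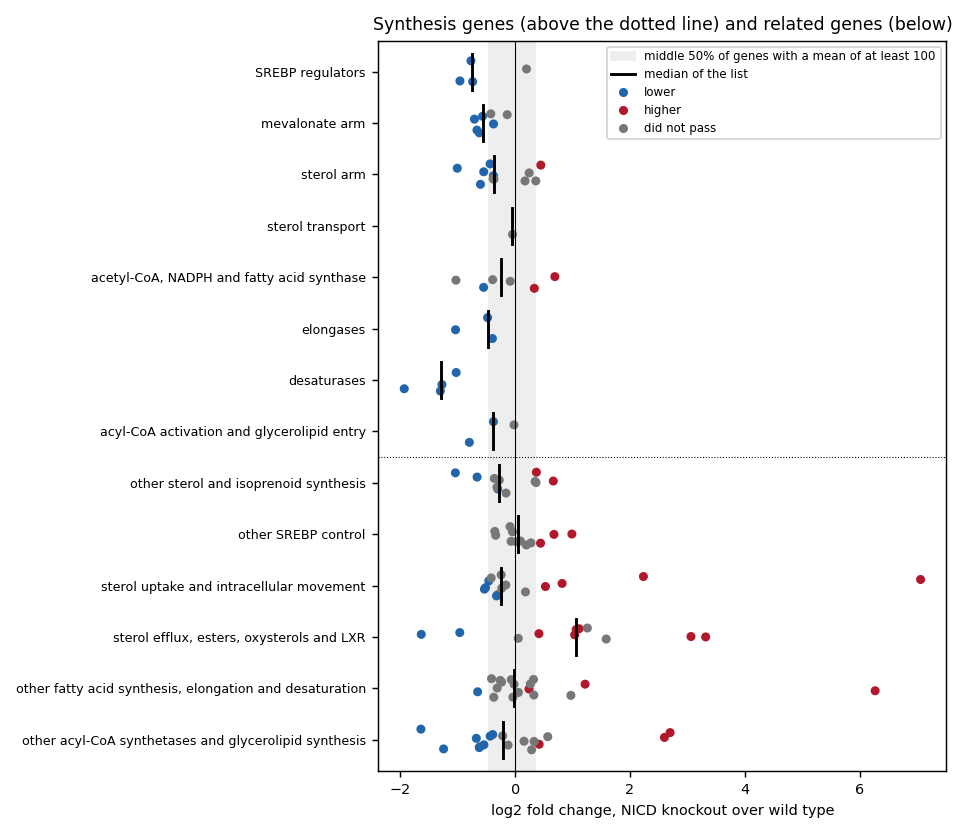
Log2 fold change (x axis) of each gene by list, coloured by the call, with the median of each list as a black bar; lists of the 39 genes stand above the dotted line and the 6 lists of related genes below it, and the grey band holds the middle 50% of genes with a mean of at least 100 (-0.46 to 0.35). The desaturase median of -1.29 lies left of the band and that of the sterol efflux list, 1.06, right of it. Of the 11 genes in the sterol efflux list, only 5 had a mean of at least 100. Gramd1c, the point farthest right, is drawn at its fitted value, which depends on a wild type level near 0.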

How the data were processed

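Total RNA of 6 mLPS1 libraries was extracted with TRI Reagent, per the labels' protocols. Salmon, DESeq2 and mm39 are named in the submitters' processing notes; their versions, settings and filters were not stated there. The authors deposited 1 comparison table, with no values of single libraries and library depth unknown: a mean count divided by size factors, taken as a signal, and per the file headers a log2 fold change with its SE. The authors deposited a p-value, its adjusted form and the Wald statistic behind them, a score. Recomputed here, they differed by no more than 1.56e-13. Of 14472 rows, 2 have no p. The mean counts sum to 21033526, and the median SE of the 39 genes was 0.19.

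Calls were taken from the authors' DESeq2 results, adjusted over all 14470 genes with a threshold of 0.05, since the edgeR test planned for counts needs values of single libraries. Computed here were 95% Wald intervals (1.96 SEs), fitted group levels, counts and medians per list, and neighbour medians from gene order in GENCODE M21 (GRCm38; 14456 rows, 99.9%, matched by identifier). The neighbours were 10310 protein-coding genes at a mean of 100 or more. For the named genes of the pathways, a median of at least 0.3 either way is given in the text. Promoter windows were matched by symbol in the RefSeq table of GRCm38.p6. Alternatives changed the threshold, the null hypothesis, the filter on the mean, the centring and the neighbours. The arithmetic was tested on simulated data. All 39 genes are named, with up to 3 called genes per direction and list of related genes by smallest p. Some of the latter are not reported here. Scd4, Cd68 and others outside that rule were chosen after their values were seen. The members and lists were chosen with earlier results of these data known. Python 3.11.15, numpy 2.4.6, pandas 2.3.3, scipy 1.17.1 and matplotlib 3.10.9 were used.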

Additional observations from a re-analysis of the deposited data

How the results depend on the processing

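No library could be left out and no count model refitted, since no values of single libraries were in use, and no gene stood on 2 rows. Of the 39 genes, Fads2, Scd1, Scd2 and Elovl6 were lower in all 8 alternatives, and none was higher in all 8. An adjusted p under 0.01 left 17 of the 39 lower, against 20.4% of all genes tested. It left 3 mevalonate genes, 3 sterol-arm genes and 1 gene of acyl-CoA activation lower. Centring on expressed genes (median -0.05) ended the calls of Sqle, Nsdhl and Acsl1, leaving 3 and 1 lower in those last 2 steps. It left 20 of the 39 lower, against 22.9% of all genes tested. At least 2-fold, as well as Bonferroni adjustment, left 6 of the 39 lower and 0 higher: 4 desaturases, 1 elongase and Dhcr7, with 0 in each other step. Testing for a change beyond 1.5-fold left 4 lower (3 desaturases and 1 elongase) and 0 higher. Among all genes tested, 9.74%, 11.5% and 8.13% were lower under these 3 rules. With neighbours subtracted, 5 were higher: 4 in the sterol arm and 1, Me1, in acetyl-CoA and fatty acid supply, where 3 were lower. Stard4 then passed as lower (1 of 1), and Gpam was the 1 gene lower in its step. Acat2, Hsd17b7, Fasn and Acsl1 lost their calls there. With a mean of at least 100, Mvd passed as lower. Of the 82 related genes, 18 were lower and 21 higher. The higher fell to 13 at 0.01, to 11 at 2-fold or more and to 6 under Bonferroni or beyond 1.5-fold, and the lower to 4, 4 and 2 under 2-fold, Bonferroni and 1.5-fold. Among all genes tested, 20.1% were higher at 0.01, 13.4% at 2-fold or more, 10.5% under Bonferroni and 9.61% beyond 1.5-fold. With neighbours subtracted, Mylip and Lpin1 turned from lower to 0.071 and 0.30 without passing, and Fntb, not called before, passed as higher at 0.57. Genes around Mylip, Lpin1 and Fntb had medians of -0.53, -0.93 and -0.93. The other causes of these shifts were not tested. Depth is unknown, and SEs above 0.3 for Tm7sf2 and Acacb limit what could be detected.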
